A study of Mus musculus with 7 samples.

Results

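Iron homeostasis genes were examined in liver RNA-seq of TET1 KO mice. They comprise 10 of the 51426 genes counted, chosen by name for their roles in iron handling: the hepcidin genes Hamp and Hamp2, the transferrin receptor genes Tfrc and Tfr2, transferrin (Trf), the ferritin subunit genes Fth1 and Ftl1, ferroportin (Slc40a1), the ligand gene Bmp6 and the BMP target gene Id1. The rule used no measured value, although earlier results of these data were known when the genes were chosen. The livers came from 3 WT and 4 TET1 KO male mice, both labelled C57BL/6J. All 7 mice had eaten a high fat diet (HFD) for 16 weeks, from 8 weeks of age on, so no animal on standard chow was in the comparison. The knockout removed Tet1, which encodes an enzyme that oxidizes 5-methylcytosine in DNA, from the whole body through the germline allele of the line B6;129S4-Tet1tm1.1Jae/J, and the controls were littermates. RNA was taken from whole liver tissue, so cells of every liver cell type contributed, and fewer cells of a type cannot be told apart from less RNA per cell. The labels number the replicates and name no animals, so p-values measure the spread between these libraries, which may be partly technical.

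Body iron is set at the liver. Hepatocytes release hepcidin, a peptide hormone that binds the iron exporter ferroportin and has it degraded, so that less iron leaves gut cells, macrophages and hepatocytes. Hepcidin transcription is raised by BMP6 and BMP2 from sinusoidal endothelial cells, through SMAD proteins that also raise Id1, and by IL-6 through STAT3. Transferrin carries iron in blood, its receptors take it up or sense it, and ferritin stores it, while iron regulatory proteins bind the mRNAs of ferritin, ferroportin and transferrin receptor 1 and adjust their use or decay.

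Mice carry a pair of hepcidin genes, and both sequences are shown because the control of hepcidin runs through the stretch just before the start of transcription. Hamp (ENSMUSG00000050440) lies at chr7:30942368-30944029 and Hamp2 (ENSMUSG00000056978) at chr7:30922372-30924181 on GRCm38.p6, both on the minus strand with 18186 bases between them. The 250 bases before the RefSeq start of each gene are given 5′ to 3′ on the minus strand, at chr7:30944030-30944279 for Hamp and chr7:30924182-30924431 for Hamp2. Capitals mark, in order, the core of the BMP-responsive element (GGCGCC) or its counterpart, and a match to the STAT site.
Hamp: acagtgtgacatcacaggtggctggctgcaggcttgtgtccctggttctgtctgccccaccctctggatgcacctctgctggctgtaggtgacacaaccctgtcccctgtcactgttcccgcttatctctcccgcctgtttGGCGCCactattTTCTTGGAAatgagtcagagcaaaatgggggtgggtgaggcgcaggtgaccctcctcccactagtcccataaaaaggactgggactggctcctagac
Hamp2: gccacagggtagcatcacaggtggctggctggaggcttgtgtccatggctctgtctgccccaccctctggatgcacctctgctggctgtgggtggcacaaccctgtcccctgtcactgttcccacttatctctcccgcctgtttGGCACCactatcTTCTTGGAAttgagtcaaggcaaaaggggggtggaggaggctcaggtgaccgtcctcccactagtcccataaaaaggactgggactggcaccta

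The windows were alike at 227 of 247 aligned positions (91.9%), with 6 further columns holding a gap. Letters were searched on both strands in the 250 bases before each start, and the 50 bases after it were not searched. These 250 bases came from RefSeq windows of 300 bases, given for 7 of the 10 genes and 32851 starts in all. GGCGCC, the letters of the BMP-responsive element core, stood at -109 in Hamp and was found in 9.59% of all windows. The aligned letters in Hamp2 differ from it by G4A, counted from 1 at the first base of the element. TTCNNNGAA, the letters of the STAT site, stood at -97 in Hamp and at -94 in Hamp2, and was in 7.02% of all windows. TGAGTCA, an AP-1 site, stood at -87 in Hamp and -84 in Hamp2 and was in 4.46% of windows. CACGTG, an E-box, was in neither hepcidin window and in 6.02% of all, and none of these matches overlapped another in the hepcidin windows. Hamp held 4 CG dinucleotides and Hamp2 held 2 in these 250 bases, against a median of 6 in those of all windows. A match gives the letters only, and neither protein binding nor DNA methylation was measured in the count tables.

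The libraries held 15005277 to 22746138 counts each, and 14754 genes passed the filter on low counts, all 10 iron genes among them. Tet1 itself had 1, 4 and 1 counts in WT and 2, 1, 4 and 1 in TET1 KO livers, which is at or near the floor of 3 counts, so it could not check the labels (exact two-sided permutation test, p = 1, smallest possible p 0.0286). WT replicate 3 stood apart from the other WT livers in acute phase genes. Saa1, a serum amyloid gene induced by IL-6, was at 2994 CPM there and at 111 and 77.9 CPM in the others. TET1 KO livers had 39.1, 582, 59.6 and 264 CPM of Saa1, so replicates 2 and 4 were also above WT replicates 1 and 2. Hepatocyte markers summed to 74736 to 95721 CPM in WT and 85175 to 96629 CPM in TET1 KO livers. Cholangiocyte markers summed to 29.7 to 37.9 CPM in WT and 46.4 to 68.0 CPM in TET1 KO livers, without overlap, and none of the 8 was at 0 in all livers. Of 5 tested, edgeR called 0, with 4 higher and 0 lower at an unadjusted p under 0.05, and DESeq2 called 2 higher and 0 lower, beside 2.02%, 26.3% and 9.02% of all genes. Lymphocyte markers summed to 3.11 to 6.68 CPM in WT and 5.29 to 11.9 CPM in TET1 KO livers, which overlapped. Of 8 tested, edgeR and DESeq2 called 0, beside 2.02% and 9.02% of all genes. At an unadjusted p under 0.05, 1 was higher and 0 lower, beside 26.3% of all genes. Log2 fold changes were positive for 7 and negative for 1, with a median of 0.51 beside 0.01 over all genes. The part of these cell types in the differences between the groups was not tested.

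Slc40a1 was the only iron homeostasis gene that passed the test. It was lower in TET1 KO livers, with 61.3 ± 11.7 CPM (counts scaled to a common library size; SD, n = 4) against 106 ± 3.41 CPM in WT (SD, n = 3). The hepcidin genes lay in the other direction, Hamp at 818 ± 325 against 529 ± 143 CPM and Hamp2 at 139 ± 60.0 against 60.9 ± 38.9 CPM, and neither passed. Id1 was above every WT liver in every TET1 KO liver but did not pass after adjustment. Of the 10 genes 0 were called higher and 1 lower by edgeR's quasi-likelihood test at a Benjamini-Hochberg adjusted p under 0.05, against 0.874% of all tested genes called higher, 1.15% called lower and 2.02% in either direction. At an unadjusted p under 0.05, 2 were higher and 1 lower, beside 26.3% of all genes in either direction. The groups did not overlap for 1 higher and 1 lower gene of the 10, beside 11.7% and 10.8% of all genes, 22.5% in all. DESeq2 called 1 higher (Id1) and 1 lower (Slc40a1), beside 9.02% of all genes in either direction. The median log2 fold change of the 10 genes was -0.11, beside 0.01 over all tested genes.

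**Figure D1:**
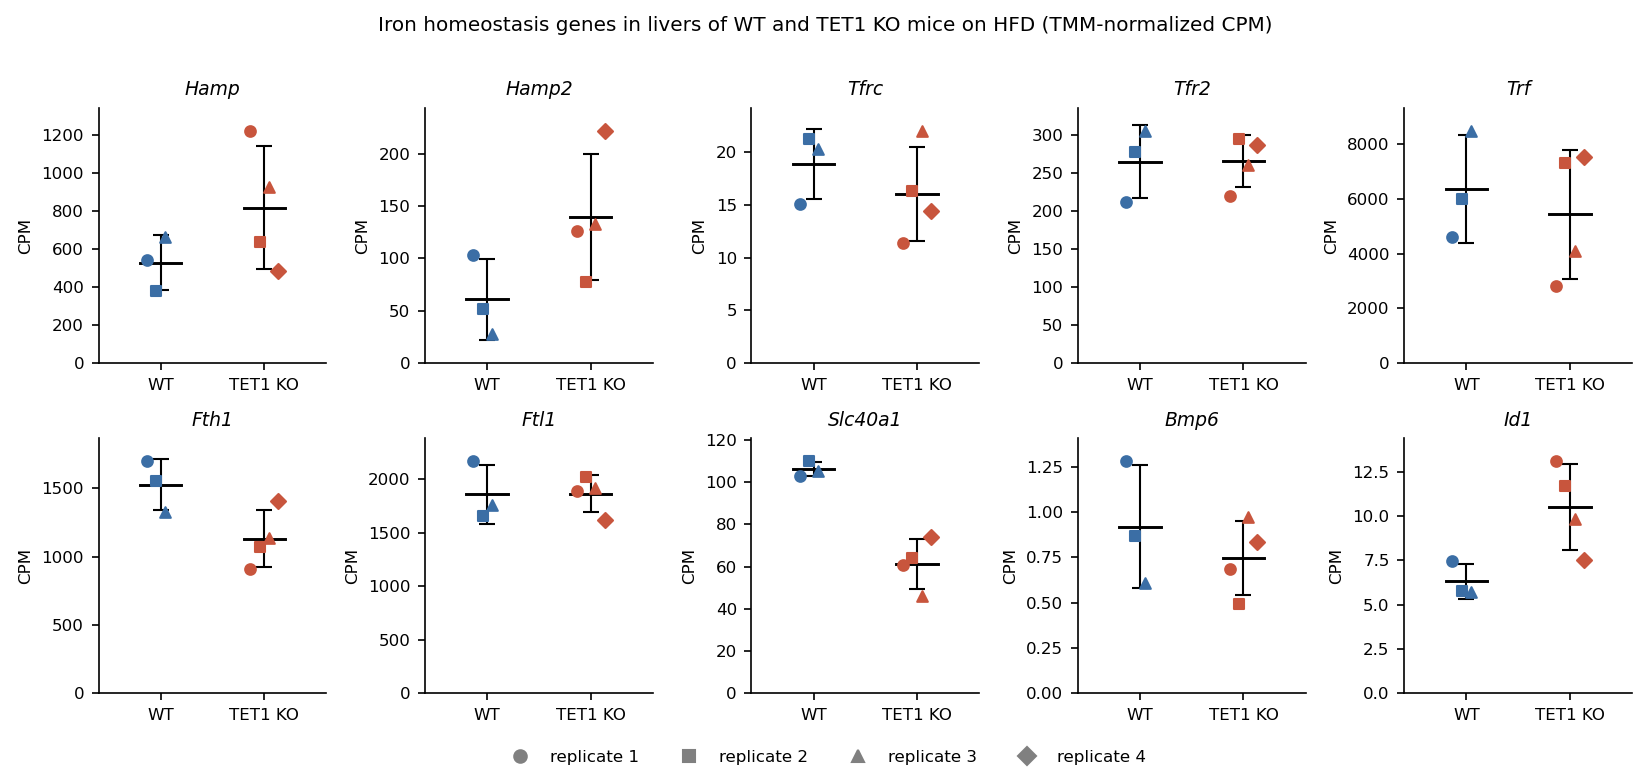
TMM-normalized CPM of the 10 iron homeostasis genes (y axes, each from 0) in 3 WT livers (blue) and 4 TET1 KO livers (red), one point per liver with its replicate number as the symbol, bar and whiskers for the mean and SD. Slc40a1 lies at 46.0 to 74.2 CPM in TET1 KO and 103 to 110 CPM in WT livers, and Id1 is the other gene whose groups do not overlap.

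**Figure D2:**
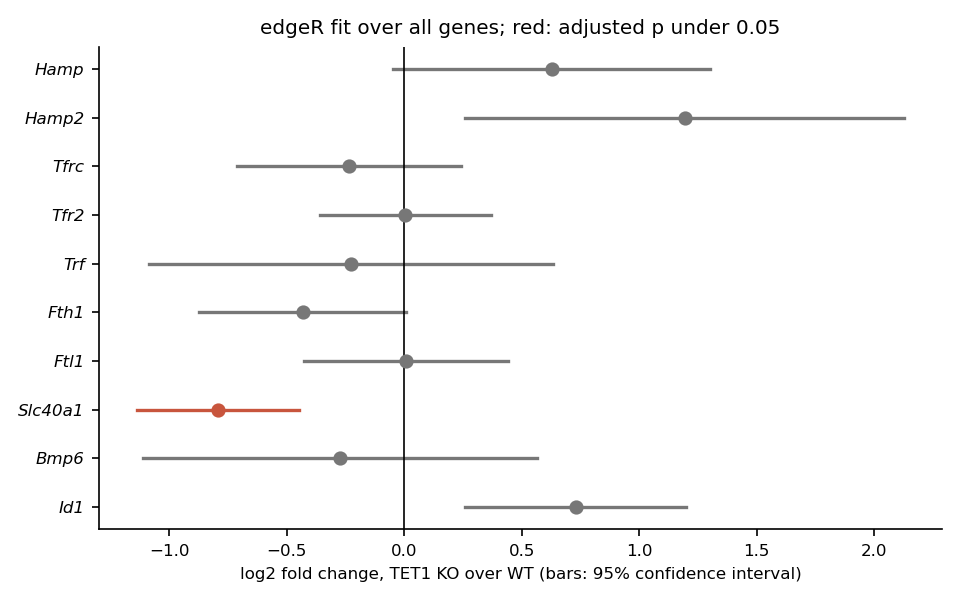
Log2 fold change of each iron homeostasis gene in TET1 KO over WT livers (x axis) with its 95% confidence interval as a bar, from the edgeR fit over all genes. Slc40a1, in red, passed the adjusted threshold at -0.79, and the intervals of Hamp2 (0.26 to 2.13) and Id1 (0.26 to 1.20) lie above 0 without passing it.

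Hamp encodes hepcidin, the iron hormone. Hamp reached 543, 380 and 665 CPM in WT replicates 1 to 3 and 1221, 636, 928 and 486 CPM in TET1 KO replicates 1 to 4. The groups overlapped, with TET1 KO replicates 2 and 4 below the highest WT liver and replicates 1 and 3 above all of WT. The log2 fold change was 0.63 (SE 0.31, 95% confidence interval -0.05 to 1.30, edgeR adjusted p = 0.216). Without WT replicate 3, the liver with the highest Saa1 level, it was 0.80 (edgeR adjusted p = 0.217). It was 0.37 without TET1 KO replicate 1 and 0.43 without WT replicate 2 (edgeR adjusted p = 0.413 and 0.568).

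Hamp2 is the second hepcidin gene of the mouse, whose product has little effect on iron. Its level was 104, 51.8 and 27.4 CPM in WT and 126, 77.3, 132 and 221 CPM in TET1 KO livers. Only TET1 KO replicate 2 fell within the WT range. A log2 fold change of 1.19 (SE 0.42, 95% confidence interval 0.26 to 2.13) came with an unadjusted edgeR p of 0.0169 and an adjusted p of 0.117, so the gene did not pass. The estimate was 0.82 without WT replicate 3 and 1.80 without WT replicate 1, with edgeR adjusted p = 0.247 and 0.0531.

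The hepcidin genes differed in which livers stood high. Hamp2 took 16.0%, 12.0% and 3.95% of the counts of the pair in WT livers and 9.34%, 10.8%, 12.5% and 31.3% in TET1 KO livers. TET1 KO replicate 4 had the lowest Hamp and the highest Hamp2 level of its group, and WT replicate 3 had the highest Hamp and the lowest Hamp2 level of its own. Because the genes are close copies, the counting could have moved reads from one to the other, and the shares carry that limit. With the counts of both summed into 1 gene, the log2 fold change was 0.70 (edgeR adjusted p = 0.135).

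Bmp6, the iron-induced ligand that raises hepcidin, lies at chr13:38345716-38500314 (ENSMUSG00000039004). It was barely detected, with 26, 21 and 11 counts in WT and 11, 7, 19 and 18 counts in TET1 KO livers. These are 1.28, 0.871 and 0.607 CPM against 0.689, 0.493, 0.972 and 0.835 CPM, and every TET1 KO value but that of replicate 2 lay within the WT range. The log2 fold change of -0.27 had a wide 95% confidence interval, -1.11 to 0.56 (SE 0.38, edgeR adjusted p = 0.667), and ran from -0.50 without WT replicate 3 to 0.01 without WT replicate 1. A 2-fold decrease thus lay within the interval at this depth. Markers of sinusoidal endothelium, the cells that make the ligand, summed to 268 to 298 CPM in WT and 267 to 307 CPM in TET1 KO livers. Of these 10 markers edgeR called 0, with 0 higher and 2 lower at an unadjusted p under 0.05, and DESeq2 called 0 higher and 1 lower (Lyve1, edgeR log2 fold change -1.08), beside 2.02%, 26.3% and 9.02% of all genes.

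Id1 encodes an inhibitor of helix-loop-helix transcription factors and is a direct target of BMP signalling (ENSMUSG00000042745, chr2:152736251-152737410). WT livers had 7.48, 5.76 and 5.74 CPM of Id1, and TET1 KO livers had 13.1, 11.7, 9.82 and 7.52 CPM. All TET1 KO livers lay above all WT livers, replicate 4 by a small margin over WT replicate 1. On the log2 scale the difference was 0.73 (SE 0.21, 95% confidence interval 0.26 to 1.20, edgeR adjusted p = 0.0816). DESeq2 called it at an adjusted p of 0.0427, as did edgeR without TET1 KO replicate 4 at 0.0368. Without WT replicate 3 the log2 fold change was 0.65 (edgeR adjusted p = 0.189).

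Other BMP and SMAD target genes were read from the same fit. Of 8 tested, 1 was called higher and 0 lower by edgeR, beside 2.02% of all genes in either direction. The counts were also 1 higher and 0 lower at an unadjusted p under 0.05 and by DESeq2, beside 26.3% and 9.02% of all genes. The called gene was Atoh8, which encodes a helix-loop-helix transcription factor linked to hepcidin. It had 11.3, 13.1 and 12.0 CPM in WT and 25.9, 17.8, 28.7 and 17.8 CPM in TET1 KO livers, all of the latter above all of the former. Its log2 fold change was 0.89 (SE 0.20, edgeR adjusted p = 0.0461). Among the fits with a liver left out, only that without TET1 KO replicate 4 kept the call, and edgeR's adjusted p ran from 0.0261 to 0.159, with 0.101 without WT replicate 3. Log2 fold changes were positive for 7 of the 8 genes, with a median of 0.19 beside 0.01 over all genes, but those of Id2 (0.15), Id3 (0.19), Smad7 (0.21) and Smad9 (0.18) were smaller than their standard errors (0.21, 0.26, 0.22 and 0.33). Id4, the gene with a negative value, was at -0.67 (SE 0.44, edgeR adjusted p = 0.348).

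**Figure D3:**
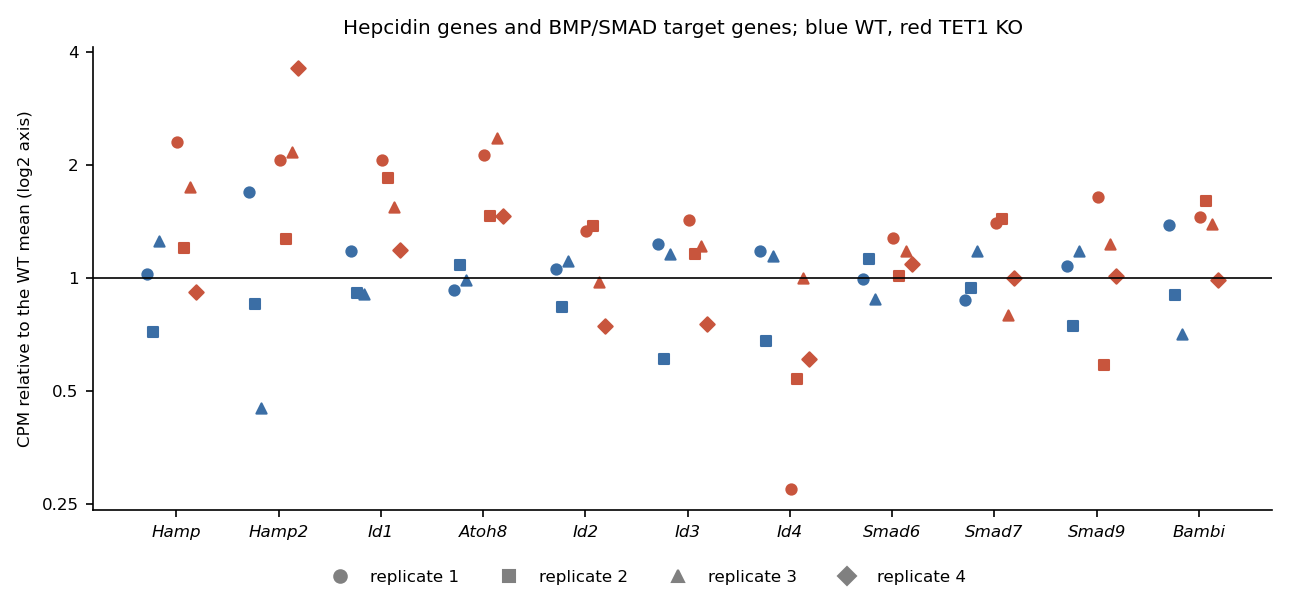
CPM of Hamp, Hamp2, Id1 and the 8 other BMP and SMAD target genes in each liver relative to the mean of the WT livers (y axis, log2 scale, line at 1), blue for WT and red for TET1 KO, symbols for the replicate number. Atoh8 lies at 1.47 to 2.37 and Id1 at 1.19 to 2.07 in TET1 KO livers, above all WT livers, while Id2, Id3 and Smad7 overlap.

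Transferrin receptor 1, encoded by Tfrc, takes up transferrin-bound iron (ENSMUSG00000022797, chr16:32608896-32632794). Tfrc was at 15.1, 21.3 and 20.3 CPM in WT and 11.4, 16.3, 22.0 and 14.4 CPM in TET1 KO. The groups overlapped, and the highest and the lowest liver were both TET1 KO. Its log2 fold change was -0.23 (SE 0.22, 95% confidence interval -0.71 to 0.24, edgeR adjusted p = 0.503). It ran from -0.44 without TET1 KO replicate 3 to -0.10 without TET1 KO replicate 1.

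Tfr2 encodes transferrin receptor 2, a sensor of iron-loaded transferrin in hepatocytes (ENSMUSG00000029716, chr5:137569822-137588081). WT livers showed 212, 278 and 305 CPM and TET1 KO livers 221, 295, 261 and 287 CPM, all within the WT range. The log2 fold change of 0.01 (SE 0.17, 95% confidence interval -0.36 to 0.37, edgeR adjusted p = 0.988) had no settled sign, as it was -0.01 with the size factors of DESeq2 and -0.09 with library size alone. Counts of Tfr2 were 13.1 to 15.1 times those of Tfrc in WT and 11.9 to 19.9 times in TET1 KO livers, with TET1 KO replicate 3 below the WT range and the other 3 above it. This ratio is of counts and is not corrected for the lengths of the genes.

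Trf encodes transferrin, the iron carrier that hepatocytes secrete (ENSMUSG00000032554, chr9:103208876-103230286). Levels were 4603, 6001 and 8467 CPM in WT and 2824, 7314, 4077 and 7507 CPM in TET1 KO livers. Replicates 1 and 3 of TET1 KO were below every WT liver and replicates 2 and 4 were within the WT range. The spread was wide, and the log2 fold change of -0.23 (SE 0.39, 95% confidence interval -1.09 to 0.63, edgeR adjusted p = 0.732) ran from -0.42 without TET1 KO replicate 4 to 0.01 without WT replicate 3.

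Slc40a1 encodes ferroportin, the iron exporter of vertebrate cells (ENSMUSG00000025993, chr1:45908070-45926532). Slc40a1 stood at 103, 110 and 105 CPM in WT and at 61.0, 64.1, 46.0 and 74.2 CPM in TET1 KO livers. All TET1 KO livers lay below all WT livers, and the WT livers were close to each other. The level in TET1 KO was 0.578 of that in WT (95% confidence interval 0.455 to 0.734), a log2 fold change of -0.79 (SE 0.16, edgeR adjusted p = 0.0329), the gene of rank 171 by p among 14754. DESeq2 gave -0.82 with an adjusted p of 0.000486. The direction held with every liver left out, from -0.90 to -0.69, but edgeR's adjusted p then ran from 0.0193 to 0.149 and stayed under 0.05 only without TET1 KO replicate 4. It was 0.0523, 0.149 and 0.0640 by edgeR without WT replicates 1, 2 and 3. Ferroportin is abundant in macrophages that recycle red cells, and Kupffer cell and macrophage markers summed to 247 to 408 CPM in WT and 194 to 411 CPM in TET1 KO livers, which overlapped. Of these 10 markers none was at 0 in all livers, and edgeR, DESeq2 and an unadjusted edgeR p under 0.05 each gave 0, beside 2.02%, 9.02% and 26.3% of all genes. Stellate cell markers, none at 0 in all livers, summed to 336 to 571 CPM in WT and 342 to 486 CPM in TET1 KO livers, which overlapped. Of these 10 markers edgeR called 0 higher and 1 lower (Rgs5, log2 fold change -0.67, adjusted p = 0.0460). At an unadjusted p under 0.05, 0 were higher and 3 lower, and DESeq2 called 0 higher and 3 lower (Rgs5, Col1a1 and Col3a1). Beside these stood 2.02%, 26.3% and 9.02% of all genes. Log2 fold changes were negative, the direction of Slc40a1, for 8 of the 10 markers and positive for 2. Erythroid markers summed to 778 to 871 CPM in WT and to 219, 489, 428 and 1114 CPM in TET1 KO livers. All 6 erythroid markers tested had negative log2 fold changes, the direction of Slc40a1, with a median of -0.64, and edgeR and DESeq2 called 0, with 0 higher and 2 lower at an unadjusted p under 0.05, beside 2.02%, 9.02% and 26.3% of all genes. The part of macrophage, stellate and erythroid cells in the Slc40a1 difference was not tested.

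Ferritin stores iron in a shell of heavy and light subunits. Fth1, the heavy subunit with ferroxidase activity (ENSMUSG00000024661, chr19:9980600-9985111), was at 1697, 1555 and 1327 CPM in WT and 908, 1070, 1140 and 1406 CPM in TET1 KO livers. TET1 KO replicate 4 alone was within the WT range and the other 3 were below it. Group means were 1526 ± 186 CPM (SD, n = 3) and 1131 ± 207 CPM (SD, n = 4). The log2 fold change of -0.43 (SE 0.20, 95% confidence interval -0.87 to 0.01) did not pass, with an unadjusted edgeR p of 0.0537 and an adjusted p of 0.197. It was -0.54 without WT replicate 3 (edgeR adjusted p = 0.213).

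Ftl1, the light subunit (ENSMUSG00000050708, chr7:45457944-45459886), was at 2165, 1651 and 1754 CPM in WT and 1893, 2020, 1921 and 1621 CPM in TET1 KO livers, which overlapped. A log2 fold change of 0.01 (SE 0.20, 95% confidence interval -0.43 to 0.44, edgeR adjusted p = 0.989) had no settled sign, being -0.01 with the size factors of DESeq2 and -0.09 with library size alone. Ftl1 counts were 1.28, 1.06 and 1.32 times those of Fth1 in WT and 2.08, 1.89, 1.68 and 1.15 times in TET1 KO livers. In TET1 KO replicates 1 to 3 the ratio was above every WT liver, and in replicate 4 within the WT range.

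Reads of Ftl1 are hard to place, since pseudogenes carry near copies of its mRNA. Ftl1-ps1, such a pseudogene, had 1812, 1604 and 1429 CPM in WT and 907, 1314, 1164 and 1381 CPM in TET1 KO livers, the latter all below WT. Its log2 fold change was -0.44 and that of the pseudogene Ftl2-ps was -0.49, and neither passed (edgeR adjusted p = 0.196 and 0.170). Counts of Ftl1-ps1 were 0.815 to 0.972 times those of Ftl1 in WT and 0.479 to 0.852 times in TET1 KO livers. Ftl1-ps1 counts were also 0.982 to 1.23 times those of Fth1 in all 7 livers. With every gene whose symbol starts with Ftl summed into 1, light ferritin had a log2 fold change of -0.20 (edgeR adjusted p = 0.580), so the value of Ftl1 turned with how its copies were counted. Fth1 summed with its own copies kept -0.43 (edgeR adjusted p = 0.197).

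**Figure D4:**
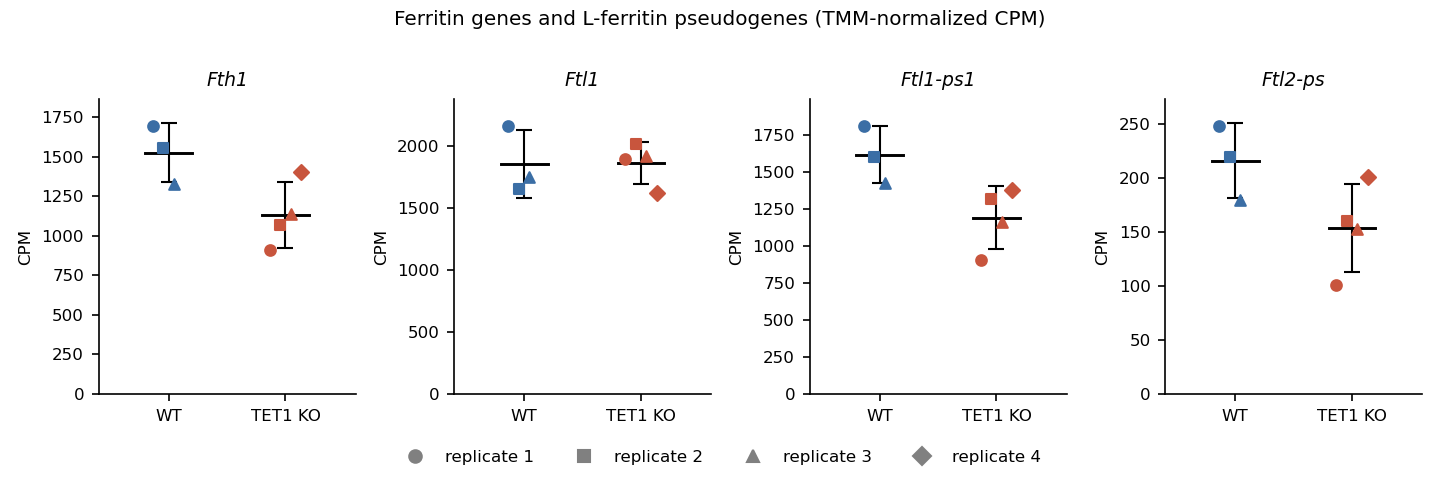
TMM-normalized CPM (y axes, from 0) of Fth1, Ftl1 and the light ferritin pseudogenes Ftl1-ps1 and Ftl2-ps in WT (blue) and TET1 KO (red) livers, one point per liver with mean and SD. Ftl1-ps1 lies at 1429 to 1812 CPM in WT and 907 to 1381 CPM in TET1 KO livers, while Ftl1 overlaps between the groups.

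Levels per length were compared between the genes as CPM per kilobase of exon, with exon lengths from GENCODE M1. In WT livers the order of the means was Trf at 1921, Fth1 at 1762, Ftl1 at 1385 and Hamp at 1350, then Hamp2 at 139, Tfr2 at 90.6, Slc40a1 at 31.4, Id1 at 5.45, Tfrc at 3.05 and Bmp6 at 0.256 CPM per kilobase. Neighbours among the first 4 had overlapping WT ranges, as did Hamp2 and Tfr2, and the other neighbours did not overlap. In TET1 KO livers Hamp came first at 2086 CPM per kilobase, before Trf at 1641, Ftl1 at 1391 and Fth1 at 1306, with ranges that overlapped between neighbours. The order of the remaining 6 was that of WT. The place of Ftl1 rests on reads assigned to it alone, while Ftl1-ps1 held a mean of 1615 CPM in WT and 1192 CPM in TET1 KO livers.

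Of the other genes of iron handling, 110 in 8 lists, 105 were tested, and edgeR called 1 higher, Atoh8, and 0 lower, beside 2.02% of all tested genes in either direction. At an unadjusted p under 0.05, 9 were higher and 17 lower, a share close to the 26.3% of all genes. DESeq2 called 3 higher and 4 lower, beside 9.02% of all genes. The groups did not overlap for 8 higher and 10 lower genes, beside 11.7% and 10.8% of all genes. The median log2 fold change was -0.11, beside 0.01 over all genes.

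Among 16 tested genes of hepcidin control, edgeR called 0 in either direction, beside 2.02% of all genes. At an unadjusted p under 0.05, 1 was higher and 4 lower, and DESeq2 called 0 higher and 2 lower, beside 26.3% and 9.02% of all genes. The smallest p belonged to Bmp5, a BMP ligand, at 7.89 ± 1.49 CPM (SD, n = 3) in WT and 4.70 ± 0.520 CPM (SD, n = 4) in TET1 KO. This log2 fold change was -0.75 with an edgeR adjusted p of 0.0629. Fkbp1a, whose product FKBP12 restrains type I BMP receptors, was at 48.1 ± 0.291 CPM (SD, n = 3) and 33.1 ± 4.58 CPM (SD, n = 4), with a log2 fold change of -0.54 and an edgeR adjusted p of 0.0630. In both genes all TET1 KO livers lay below all WT livers. Bmp4, another BMP ligand, went the other way at 0.96 (edgeR adjusted p = 0.0977), with all TET1 KO livers above all WT livers.

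The IL-6 and acute phase list gave 0 calls by edgeR among 20 tested genes, beside 2.02% of all genes. At an unadjusted p under 0.05, 1 was higher and 3 lower, and DESeq2 called 1 higher and 0 lower, beside 26.3% and 9.02% of all genes. Il6ra, the IL-6 receptor, had a log2 fold change of 0.84 (edgeR adjusted p = 0.0948), or 0.55 without TET1 KO replicate 1 (edgeR adjusted p = 0.142), and Il6st, its signalling partner, -0.35 (edgeR adjusted p = 0.112). The list summed to 7587, 10414 and 21440 CPM in WT and 5962 to 10897 CPM in TET1 KO livers, so WT replicate 3 was the highest of all.

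Genes of iron transport and reduction numbered 12 tested, with 0 called by edgeR, 0 higher and 4 lower at an unadjusted p under 0.05 and 0 higher and 1 lower by DESeq2, beside 2.02%, 26.3% and 9.02% of all genes. Flvcr2, a membrane transporter described as a heme carrier, was at -0.99 on the log2 scale (edgeR adjusted p = 0.0852) and Slc39a8, the metal importer ZIP8, at -0.70 (edgeR adjusted p = 0.124), or -0.40 without WT replicate 2 (edgeR adjusted p = 0.483). Heme and haemoglobin clearance gave 0 calls by edgeR among 10 tested genes, with 0 higher and 1 lower both at an unadjusted p under 0.05 and by DESeq2, beside the same shares of all genes. Hmox1, the heme oxygenase that frees iron from heme, was at 20.3 ± 1.96 CPM (SD, n = 3) in WT and 11.4 ± 4.46 CPM (SD, n = 4) in TET1 KO. Its log2 fold change was -0.83, which did not pass (edgeR adjusted p = 0.0966). Slc48a1, the lysosomal heme exporter HRG1, was at -0.25 (edgeR adjusted p = 0.230).

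In heme synthesis edgeR and DESeq2 called 0 of 8 genes, with 1 higher and 1 lower at an unadjusted p under 0.05, beside 2.02%, 9.02% and 26.3% of all genes. Alas1, the first and rate-limiting enzyme of the pathway in liver, had a log2 fold change of -1.02 (edgeR adjusted p = 0.145), and Alad, the next enzyme, 0.51 (edgeR adjusted p = 0.102). Iron sensing and chaperone genes gave 0 calls by edgeR and DESeq2 among 11 tested, with 1 higher and 1 lower at an unadjusted p under 0.05, beside the same shares of all genes. Bola2, an iron-sulfur chaperone, was at 0.60 (edgeR adjusted p = 0.132), or 0.39 without TET1 KO replicate 1 (edgeR adjusted p = 0.240), and Ncoa4, the receptor that delivers ferritin to lysosomes, at -0.30 (edgeR adjusted p = 0.158) on the log2 scale. Among 20 genes of mitochondrial iron and iron-sulfur clusters edgeR called 0, with 4 higher and 3 lower at an unadjusted p under 0.05 and 1 higher and 0 lower by DESeq2, beside 2.02%, 26.3% and 9.02% of all genes. Fdxr, ferredoxin reductase, was at 0.66 (edgeR adjusted p = 0.0501) and Nfs1, the cysteine desulfurase, at -0.41 (edgeR adjusted p = 0.0977).

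**Figure D5:**
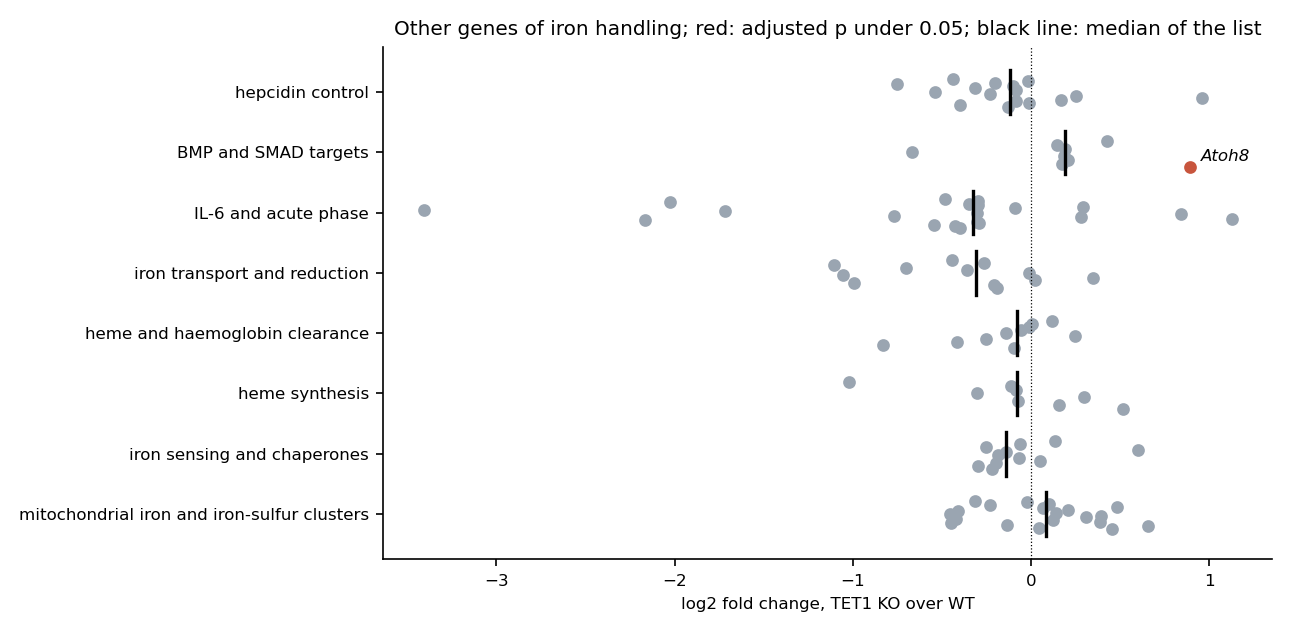
Log2 fold change in TET1 KO over WT livers (x axis) of the 105 tested genes of iron handling, one point per gene, in 8 lists (rows) with the median of each list as a black line. Atoh8, in red at 0.89, is the gene called by edgeR, and the points furthest to the left are acute phase genes that were high in WT replicate 3.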

How the data were processed

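RNA from the livers of 3 WT mice and 4 TET1 KO mice on the HFD was analysed, with groups and replicate numbers from the sample titles. The authors deposited one table per liver of raw read counts per gene, not normalized. The submitters' processing notes list Trimmomatic 0.36, GSNAP, featureCounts 1.5.3 and the build GRCm38, and the labels describe stranded libraries, made from poly(A) RNA or alternatively from rRNA-depleted RNA. The strand setting and annotation of the counting are not given in the sources used here, so overlapping genes, the hepcidin pair and ferritin pseudogenes are uncertain. Genes were joined by Ensembl identifier, 5 repeated entries were left out, 83 genes without a symbol held at most 0.0553% of counts, and 26 symbols that differed between tables were set by majority.

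Counts were tested in R 4.3.3 with edgeR 4.0.16 (filterByExpr, TMM, glmQLFit with legacy = FALSE and robust = FALSE, glmQLFTest) over 14754 genes without covariates, with Benjamini-Hochberg adjusted p under 0.05. Each SE came from the fitted log2 fold change together with its F statistic, and CPM values carry the TMM scaling. The common biological coefficient of variation was 0.208. Libraries of one genotype differed by more than sampling noise (chi-square per degree of freedom at least 27.4). DESeq2 1.42.0, other scalings and filters, robust dispersions, a replicate block, leaving out each liver and summed paralog counts were alternatives. The fits were tested on simulated data.

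Positions and promoter windows are those of RefSeq on GRCm38.p6, and windows were aligned with Biopython 1.88. Exon lengths came from GENCODE M1 by identifier. The members and lists were chosen with earlier results of these data known. Named are the 10 members, Tet1 and, from each of 8 pathway lists, genes with an adjusted p under 0.05 or otherwise the 2 with the smallest p, and ferritin-like genes. Saa1, Bmp4, Id2, Id3, Id4, Smad7, Smad9, Lyve1, Rgs5, Col1a1 and Col3a1 were named after their values were seen. Marker lists of 7 cell types were summed as CPM.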

Additional observations from a re-analysis of the deposited data

Results flagged for a closer look

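The summed level of the iron sensing and chaperone genes was 708 CPM in TET1 KO replicate 1 and 802, 796 and 796 CPM in TET1 KO replicates 2 to 4. The gap of replicate 1 to the nearest liver was 0.938 of the range of the group, above the critical value of Dixon's test for 4 samples. WT livers were at 807 to 869 CPM, so every TET1 KO liver was below every WT liver. Of 42 levels examined in the TET1 KO livers (27 genes and 15 lists), 1 stood out in this way, and chance alone gives about 2.1.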

How the results depend on the processing

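Slc40a1 kept its direction in all 14 alternatives and was called in 8. Over all genes, 129 were called higher and 169 lower. DESeq2 called 628 and 698, the fit without a filter 245 and 347, library size alone 107 and 312, and leaving out a liver gave 16 to 427 higher and 21 to 464 lower, with the lowest counts without WT replicate 2 and the highest without TET1 KO replicate 4. Of the 10 iron homeostasis genes, 0 were called higher and 1 lower. DESeq2 called 1 higher, and leaving out a liver gave 0 to 1 higher and 0 to 1 lower. Of the other iron genes, 1 was called higher and 0 lower. DESeq2 gave 3 and 4, library size alone 0 and 2, no filter 2 and 1, robust dispersions 2 higher, summed Hamp and Hamp2 counts 2 higher, and leaving out a liver 0 to 2 higher and 0 to 3 lower. The exact permutation p of the Tet1 counts was 0.733 to 1 with a liver left out. Causes of these differences were not tested.

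Replicate numbers did not pair the livers: deviations of same-numbered livers correlated at 0.209, -0.12 and -0.096, and not every liver correlated best with its own number. With the replicate number as a block, 671 genes were called higher and 656 lower over all genes, 2 iron homeostasis genes higher (Hamp, edgeR adjusted p = 0.0466, and Id1, 0.0293) and 1 lower, and 4 other iron genes higher and 5 lower, and the log2 fold changes of Trf and Alas1 were -0.49 and -1.59, beside -0.23 and -1.02 without the block.

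The log2 fold change changed sign in genes near 0. Tfr2 (0.0052) was -0.018 by DESeq2, -0.0077 with RLE size factors, -0.087 with library size alone, -0.020 without a filter, -0.027 with the replicate block, and -0.14 to 0.098 with a liver left out. Ftl1 (0.0054) was -0.018, -0.0079, -0.091 and -0.022 in the first 4 of these fits, -3.5e-06 with at least 10 counts in every library, -0.20 when summed with Ftl genes, and -0.080 to 0.12 with a liver left out. With a liver left out Bmp6 ran from -0.50 to 0.012 and Trf from -0.42 to 0.015, each positive in 1 fit, without WT replicate 1 and without WT replicate 3. The median over all genes was 0.01, -0.0018 with RLE size factors and -0.081 with library size alone. Depth limits Bmp6, with 7 to 26 counts a library, and Tet1, with 1 to 4.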
